A study of Homo sapiens with 16 samples.

Results

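The genes described here are CXCL12 (stromal cell-derived factor 1), its receptors CXCR4 and ACKR3 (also called CXCR7), the ligand and receptor pair CXCL16 and CXCR6, and the chemokines CXCL1 and CXCL2. They were found as every probe of the array whose annotated symbol was one of these names, which gave 10 probes for 7 genes among 24526 probes for 16922 named genes. The samples were C4-2B/Rx2dox cells, a subline of the human bone metastasis-derived prostate cancer line C4-2B that carries a lentiviral, doxycycline (Dox)-inducible cDNA for Flag-tagged mouse Runx2. The same vector carries the rtTA3 activator and a hygromycin resistance gene under the Ubi-c promoter, and the cells were a transduced and selected subline rather than a panel of lines. Cells received Dox at 250 ng/mL or vehicle and were harvested after 24 h (day 1) or 48 h (day 2), with 4 biological replicates in each of the 4 groups and 1 Illumina BeadChip array per sample. All 4 groups carried the inducible construct, so an effect of Dox itself and an effect of the induced Runx2 cannot be told apart on these 16 arrays.

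Chemokines are small secreted proteins that steer cell movement through G protein-coupled receptors. CXCL12 is made by stromal cells of the bone marrow and holds hematopoietic cells there through CXCR4, a receptor that signals through inhibitory G proteins. ACKR3 binds the same ligand with high affinity but signals mainly through beta-arrestin and takes the ligand up from the surroundings. CXCL16 is made as a membrane-bound chemokine that can be shed, with CXCR6 as its receptor, and CXCL1 and CXCL2 are neighbouring, closely related genes whose products attract neutrophils through CXCR2. In prostate cancer, CXCL12 and CXCR4 are known for their part in the homing of tumor cells to bone.

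The median raw signal was 119.1 to 139.2 on the day 1 arrays and 106.6 to 112.8 on the day 2 arrays. Between 40.1% and 42.2% of probes lay above background on each array, where above background means a detection p under 0.01 against 664 negative control probes. Replicate arrays correlated at r = 0.993 to 0.996 over all probes. Of 10 measured prostate epithelial markers, 9 or 10 were above background on all 4 arrays of each group, with TMPRSS2 and STEAP2 the brightest. The log2 of the summed signal of the 10 markers was lower with Dox, though single markers moved both ways. On day 1 the sum was 12.26 to 12.34 with vehicle and 12.11 to 12.21 with Dox. On day 2 it was 12.66 to 12.75 and 12.39 to 12.51. Of the 10, 2 were higher and 5 lower on day 1, and 3 higher and 5 lower on day 2. Over all genes, 10.7% were higher and 11.5% lower on day 1, and 16.6% and 16.7% on day 2. TMPRSS2 and STEAP2 fell by 1.21 and 1.04 on day 2. KLK2 and KRT8, named after their values were seen, rose by 1.66 and 1.23 on day 2. The part of these marker changes in the CXCL12 and ACKR3 results was not tested. Both human RUNX2 probes were at background on nearly every array (1 of 16 arrays for one probe, 0 of 16 for the other), so the arrays gave no reading of the induced mouse transcript.

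Where RefSeq gave a promoter (GRCh38.p14, 250 bases before to 50 after a start site), it was searched on both strands for the Runx consensus and the GC box. A window was given for 5 of the 7 genes, with 3 for CXCR4 and 2 for CXCR6. The Runx consensus ACCACA occurred in 13.1% of 35116 promoter windows of this length. The full windows of CXCL1 and CXCL2 were identical at 231 of their 300 bases, 85.9% of the aligned pairs. ACCACA was in neither the CXCL12 window nor those of CXCR4, CXCL1 and CXCL2, and it was found once in 1 of the CXCR6 windows. The 250 bases before the CXCL12 start site (chr10:44385098-44385347, minus strand) are shown because CXCL12 is the gene with a window whose transcript rose. The capitals mark the GC box GGGCGG, read here from the opposite strand, in 3 matches of which the last 2 share a base. This motif was in 45% of all windows. A match is a description of these letters only, and no binding was measured.
CXCL12: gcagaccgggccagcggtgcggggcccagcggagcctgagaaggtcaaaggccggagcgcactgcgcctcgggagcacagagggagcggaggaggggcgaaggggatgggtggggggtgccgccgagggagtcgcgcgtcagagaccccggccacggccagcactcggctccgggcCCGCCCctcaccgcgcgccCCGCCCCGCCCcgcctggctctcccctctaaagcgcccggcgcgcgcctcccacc

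Of the 10 probes, 4 were above background on all arrays of at least 1 group: both CXCL12 probes, the ACKR3 probe and the CXCL16 probe. The other 6 probes, covering CXCR4, CXCR6, CXCL1 and CXCL2, were above background on 0 of 16 arrays. Dox raised CXCL12 and ACKR3 on both days and lowered CXCL16 on day 2. On day 1, 3 of the 10 probes passed an adjusted p of 0.05 and all 3 were higher, where 18.8% of all probes on the array passed, 8.91% higher and 9.94% lower. On day 2, 4 of the 10 passed, 3 higher and 1 lower, where 28.9% of all probes passed, 14.4% higher and 14.5% lower. Both CXCL12 probes and the ACKR3 probe rose by at least 2-fold on each day, a size reached upward by 1.1% of all probes on day 1 and 2.67% on day 2. The p-values come from limma with Benjamini-Hochberg adjustment over the whole array.

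**Figure D1:**
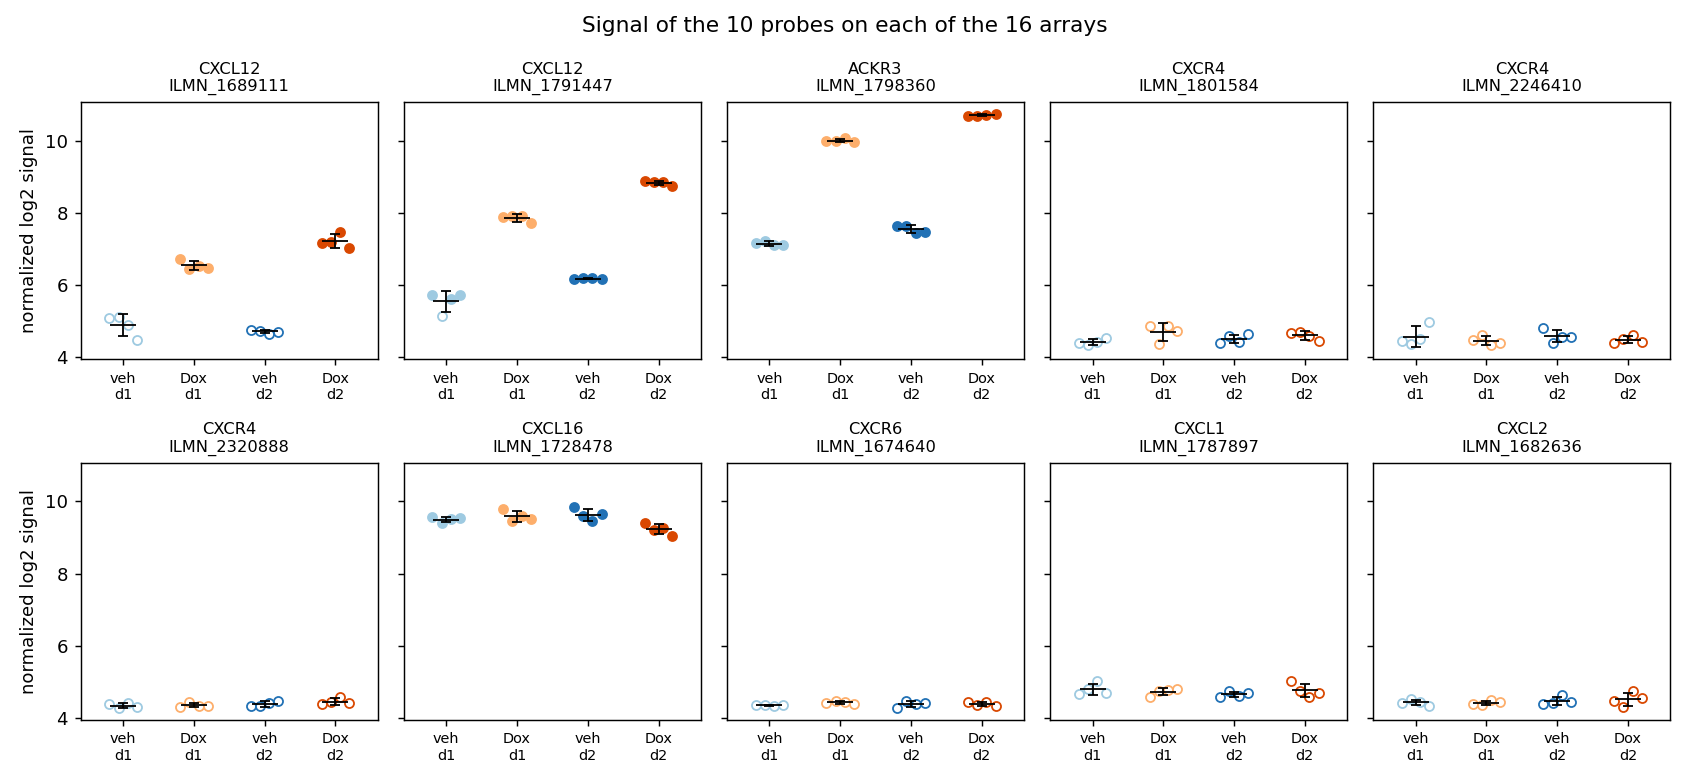
Normalized log2 signal (vertical axis) of the 10 probes on the 16 arrays, grouped as vehicle (veh) and Dox on day 1 (d1) and day 2 (d2). Each point is 1 array, filled where the probe was above background and open where it was not, and the black marks are the group mean with 1 SD (n = 4). The CXCL12 and ACKR3 points of the Dox groups lie above all vehicle points of the same day, and the 6 probes of CXCR4, CXCR6, CXCL1 and CXCL2 are drawn unfilled throughout.

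CXCL12, the ligand, lies on chromosome 10 (44370165 to 44385097, GRCh38.p14) and had 2 probes, annotated to different splice forms. Whether each probe binds only that form is not stated in the sources used here. The probe annotated to the alpha form, ILMN_1791447, gave log2 signals of 5.73, 5.13, 5.60 and 5.72 in the vehicle arrays of day 1 and 7.88, 7.92, 7.91 and 7.71 in the Dox arrays. On day 2 it gave 6.16, 6.20, 6.19 and 6.16 with vehicle and 8.87, 8.84, 8.84 and 8.75 with Dox. The groups did not overlap on either day, as for 21.3% of all probes on day 1 and 28% on day 2. Vehicle replicate 2 of day 1 was the 1 array of 16 on which this probe was not above background. Dox raised it 4.95-fold on day 1 (log2 difference 2.31 ± 0.10, SE, adjusted p = 2.8e-11) and 6.27-fold on day 2 (2.65 ± 0.10, adjusted p = 9.9e-13).

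The CXCL12 probe annotated to the gamma form, ILMN_1689111, was at background in all 8 vehicle arrays and above background in all 8 Dox arrays. Its log2 signals with Dox were 6.73, 6.45, 6.52 and 6.46 on day 1 and 7.16, 7.20, 7.48 and 7.01 on day 2. The vehicle arrays gave 5.09, 5.10, 4.90 and 4.47 on day 1 and 4.76, 4.73, 4.65 and 4.70 on day 2, values that have only an upper bound. Against the lowest signal that was above background on each vehicle array, the day 1 rise was at least 2.11-fold (adjusted p = 2.4e-08). The day 2 rise was at least 3.44-fold (adjusted p = 2.5e-11). The 2 probes, whose levels are not comparable with each other, thus moved the same way on both days. Because both were dim with vehicle, the size of their change depended on the background treatment: without background correction the log2 differences of the gamma-form probe were 0.64 and 1.08 and those of the alpha-form probe 1.24 and 1.75, all still past the threshold.

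ACKR3, the arrestin-coupled receptor for CXCL12, lies on chromosome 2 (236537122 to 236582354) and had 1 probe, ILMN_1798360, above background on 16 of 16 arrays. Its log2 signals on day 1 were 7.15, 7.23, 7.10 and 7.10 with vehicle and 10.0, 9.98, 10.06 and 9.95 with Dox. On day 2 they were 7.64, 7.64, 7.44 and 7.47 with vehicle and 10.68, 10.67, 10.72 and 10.75 with Dox. The groups were far apart, with SDs of 0.04 to 0.11 within them. In raw signal the day 1 arrays went from between 228.4 and 244.1 with vehicle to between 1170.0 and 1461.5 with Dox. The rise was 7.24-fold on day 1 (log2 difference 2.86 ± 0.06, SE, adjusted p = 1.5e-15) and 8.92-fold on day 2 (3.16 ± 0.06, adjusted p = 2.1e-16).

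CXCR4, the signaling receptor for CXCL12 on chromosome 2 (136114349 to 136118149), had 3 probes and none was above background on any array. Across the 16 arrays the log2 signals ran from 4.34 to 4.86 for ILMN_1801584, from 4.33 to 4.98 for ILMN_2246410 and from 4.27 to 4.58 for ILMN_2320888. The lowest signals that counted as above background were 5.35 to 5.52, so every CXCR4 reading fell short of them. The nearest CXCR4 reading to a Dox difference was ILMN_1801584 on day 1, at 4.38, 4.34, 4.42 and 4.54 with vehicle and 4.86, 4.35, 4.86 and 4.73 with Dox (log2 difference 0.28, 95% interval 0.06 to 0.49, adjusted p = 0.068), with overlapping groups. Without Dox replicate 2 of day 1, the array at 4.35, this probe passed (log2 difference 0.39, adjusted p = 0.0024), which made 4 of the 10 probes past the threshold on day 1 in place of 3 and 2 chemokine receptor genes higher in place of 1. In the other alternatives it did not pass (adjusted p at most 0.2), and all of its readings, Dox and vehicle, were below background. No fold is given for CXCR4, since both groups were below background, and a level under the array's detection limit is not excluded. The Dox-treated cells therefore gave a signal for the ligand CXCL12 and for ACKR3 but not, at this sensitivity, for CXCR4.

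CXCL16, a transmembrane chemokine encoded on chromosome 17 (4733533 to 4739928), was above background on 16 of 16 arrays. Its log2 signals on day 1 were 9.56, 9.39, 9.50 and 9.53 with vehicle and 9.79, 9.46, 9.58 and 9.51 with Dox. On day 2 they were 9.84, 9.59, 9.45 and 9.64 with vehicle and 9.39, 9.21, 9.27 and 9.05 with Dox. The groups overlapped on day 1 and did not on day 2, where the highest Dox array lay just under the lowest vehicle array. On day 2, 28% of all probes showed no overlap. The day 1 log2 difference was 0.09 (95% interval -0.10 to 0.29, adjusted p = 0.62), and on day 2 CXCL16 fell 1.32-fold (-0.40 ± 0.09, SE, adjusted p = 0.0026).

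CXCR6, the receptor for CXCL16 on chromosome 3 (45940915 to 45948351), was not above background on any array, with log2 signals of 4.28 to 4.48. CXCL1 and CXCL2, which lie near each other on chromosome 4 (73869393 to 73871308 and 74097040 to 74099195), were likewise below background throughout, at 4.58 to 5.02 and 4.30 to 4.73. The CXCL1 reading closest to detection was Dox replicate 1 of day 2, with a detection p of 0.026. The log2 differences of these 3 genes ranged from -0.06 to 0.11 over both days, and none passed the threshold. Of the 6 undetected probes, 1 had an unadjusted p under 0.05 on day 1, the CXCR4 probe ILMN_1801584, and 0 on day 2. At a looser detection p of 0.05, a limit chosen after seeing the data, CXCL1 counted as above background on 2 arrays and 1 CXCR4 probe, ILMN_2246410, on 1 array, and CXCR6 and CXCL2 on 0.

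**Figure D2:**
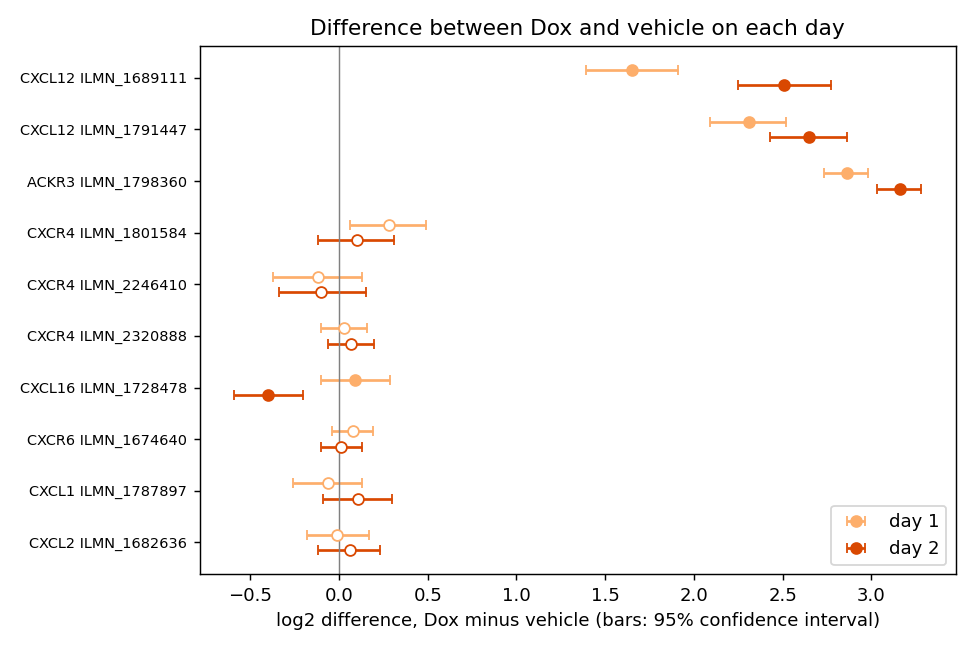
Log2 difference between Dox and vehicle (horizontal axis) of each probe on day 1 and day 2, with 95% confidence intervals. Filled points had at least 1 group with an array above background, and open points had both groups below background. The CXCL12 and ACKR3 points lie between 1.65 and 3.16, CXCL16 on day 2 lies at -0.40, and the open points lie between -0.12 and 0.28.

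The effect of Dox was compared between the days by an interaction term, the day 2 difference minus the day 1 difference. It passed for 3 of the 10 probes, 2 higher and 1 lower, against 10.9% of all probes (5.33% higher and 5.6% lower). The Dox difference was larger on day 2 for ACKR3 (by 0.30 log2 units, adjusted p = 0.026), and for CXCL16 it was lower on day 2 (by -0.49, adjusted p = 0.021). For the gamma-form CXCL12 probe the fitted value was 0.86 (adjusted p = 0.0028), but its vehicle levels were at background on both days, so the size of this difference was not measured. For the alpha-form CXCL12 probe the increase was 0.34 (95% interval 0.04 to 0.64, adjusted p = 0.17). On the values normalized by the authors none of the 3 passed, with 0.30 for ACKR3 (adjusted p = 0.094), -0.49 for CXCL16 (adjusted p = 0.059) and 0.90 for the gamma-form probe (adjusted p = 0.12). The ACKR3 call was lost without vehicle replicate 2 of day 1, Dox replicate 4 of day 1 or vehicle replicate 3 or 4 of day 2 (adjusted p = 0.054 to 0.06), and with median scaling (0.17, adjusted p = 0.46). Without vehicle replicate 2 of day 1 the alpha-form CXCL12 probe passed, at 0.48 (adjusted p = 0.0016). That probe also passed without background correction (0.515, adjusted p = 2.5e-06) and with an offset of 50 (0.485, adjusted p = 0.0013).

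Day 2 was also compared with day 1 within each treatment. With vehicle, 2 of the 10 probes passed, both higher, against 10.6% of all probes (5.3% higher): the alpha-form CXCL12 probe rose by 0.63 log2 units (adjusted p = 0.00056) and ACKR3 by 0.40 (adjusted p = 0.00026). Their raw vehicle signals overlapped between the days, at 124.8 to 146.1 on day 1 and 145.0 to 151.2 on day 2 for the alpha-form CXCL12 probe, and 228.4 to 244.1 and 227.9 to 266.9 for ACKR3, while the array medians were lower on day 2. With Dox, 4 of the 10 passed, 3 higher and 1 lower, against 19.5% of all probes (10.1% higher and 9.41% lower). From day 1 to day 2 with Dox, the CXCL12 probes rose by 0.97 (alpha form) and 0.67 (gamma form), ACKR3 rose by 0.71, and CXCL16 fell by 0.35 (adjusted p = 0.01). In raw signal the Dox arrays of day 1 and day 2 overlapped for ACKR3, at 1170.0 to 1461.5 and 1434.3 to 1650.3. They did not for the alpha-form CXCL12 probe, at 325.4 to 436.2 and 475.0 to 506.7. After normalization the alpha-form CXCL12 probe and ACKR3 were highest in the Dox arrays of day 2, then Dox day 1, vehicle day 2 and vehicle day 1. Neighbours in that order did not overlap on the normalized scale. The gamma-form probe had the same order in the Dox groups after normalization, and its vehicle groups, both at background, overlapped. Its raw Dox signals overlapped between the days, at 191.0 to 220.0 on day 1 and 203.3 to 249.4 on day 2. Between the days, 14.7% of all probes showed no overlap with vehicle and 20.8% with Dox. Whether cultures harvested on a given day were also hybridized together is not given in the sources used here.

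The patterns most like those of CXCL12 and ACKR3 were sought by Pearson's r of log2 signal over the 16 arrays, among 10796 probes above background on at least 4 arrays. Because the arrays fall into 4 groups, r here mainly reflects the group means, and it is given as a description. For the alpha-form CXCL12 probe the 5 nearest genes were AGXT, a glyoxylate-detoxifying aminotransferase (r = 0.993), CCPG1 (0.992), the mucin MUC1 (0.99), DENND2B (0.99) and TCEA2 (0.988). For the gamma-form CXCL12 probe they were TPM1, an actin-binding tropomyosin (0.99), the transcriptional repressor ETV6 (0.987), AUTS2 (0.986), SH3GLB1 (0.986) and SDCBP2 (0.985). For ACKR3 they were the actin-binding LIMA1 (0.997), the orphan receptor GPRC5C (0.995), LRRC1 (0.995), the pepsinogen gene PGC (0.994) and the small GTPase RASD1 (0.994). The r between ACKR3 and CXCL12 was 0.984 for the alpha-form probe and 0.976 for the gamma-form probe.

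Among chemokine ligands as a family, 41 of 46 listed genes were measured and 36 of them were above background on no array. Only 3 were above background on all arrays of a group, namely CXCL12, CXCL16 and CCL23, the last of which was named after its values were seen. CCL23 had a log2 difference of -0.06 on day 1 and 0.10 on day 2 (adjusted p = 0.81 and 0.57), and its second probe was on no array above background. On day 1, 1 ligand gene was higher and 0 were lower, and on day 2, 1 was higher (CXCL12) and 1 lower (CXCL16). For comparison, 10.7% of all genes were higher and 11.5% lower on day 1, and 16.6% higher and 16.7% lower on day 2. The median log2 difference of the ligand list was 0 on day 1 and 0.01 on day 2, beside -0.0062 and -0.0078 over all genes.

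Of 23 chemokine receptor genes, 21 were measured and 16 were above background on no array. ACKR3 was higher on both days, and ACKR2, a scavenging receptor for CC chemokines, was higher on day 2 (log2 difference 0.57, adjusted p = 0.00029) although it was above background on only 1 array. No receptor was lower. Over all genes, 10.7% were higher and 11.5% lower on day 1, and 16.6% and 16.7% on day 2. The 1 other receptor above background on all arrays of a group was CCR6, for which 1 probe was above background on 16 of 16 arrays and the other on 0, so its detection rests on a pair of probes that disagree. ACKR2 and CCR6 were named after their values were seen. The median log2 difference of the receptor list was 0.06 on day 1 and 0.02 on day 2, beside -0.0062 and -0.0078 over all genes.

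**Figure D3:**
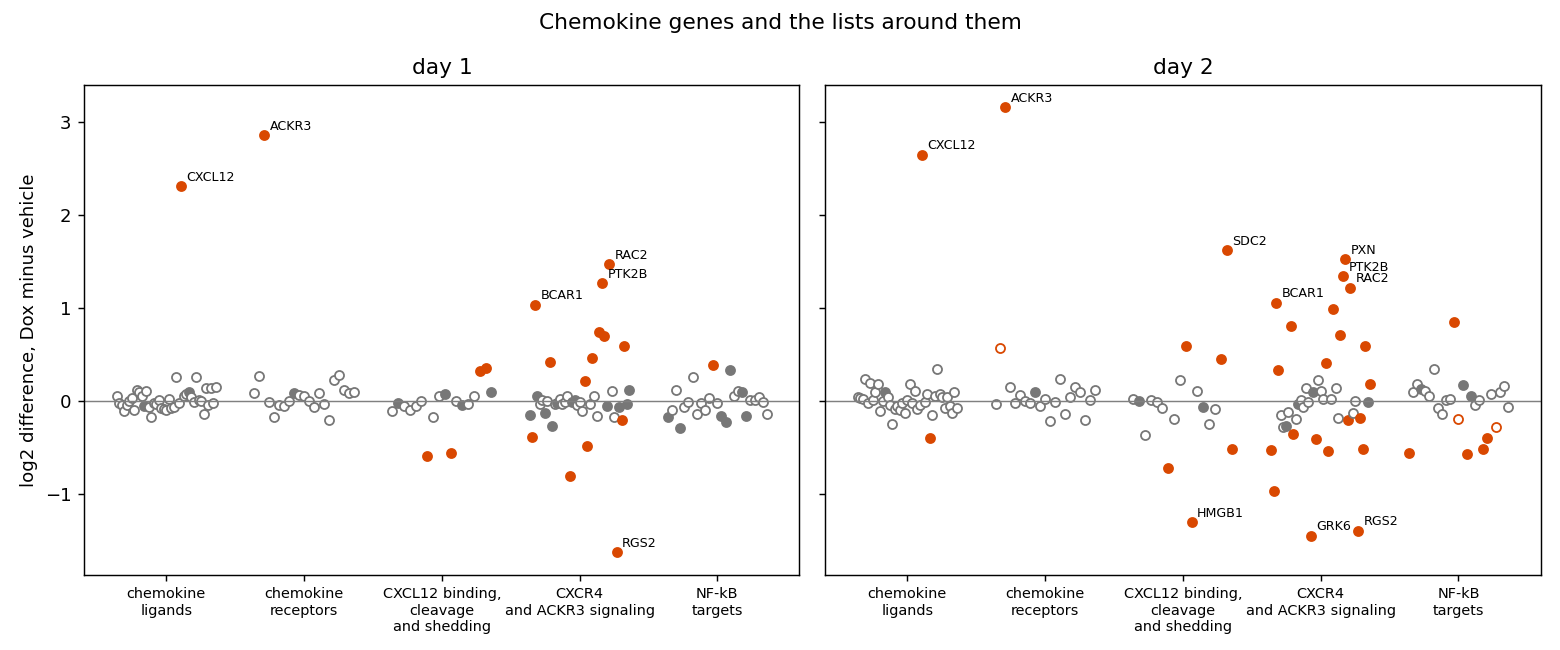
Log2 difference between Dox and vehicle (vertical axis) on day 1 and day 2 for each measured gene of 5 lists, by its brightest probe. Orange marks an adjusted p under 0.05, filled points were above background on all arrays of at least 1 group, and genes with filled points past 1 log2 unit are named. CXCL12 and ACKR3 stand at 2.31 and 2.86 on day 1, above all other genes drawn.

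A list for CXCL12 binding, cleavage and shedding had 18 measured genes, not all of whose products act on CXCL12 itself. Of these, 2 were higher and 2 lower on day 1, and 3 higher and 3 lower on day 2. The shares were near those over all genes (10.7% and 11.5% on day 1, 16.6% and 16.7% on day 2). Of the 18, 9 were above background on no array. SDC2, a cell surface heparan sulfate proteoglycan of the family that can present chemokines, was at background on all 12 arrays other than those of Dox day 2, where its log2 signals were 6.37, 5.95, 5.95 and 6.13. That rise was at least 1.59-fold (adjusted p = 7.1e-11). HMGB1, which forms a complex with CXCL12 that acts on CXCR4, gave 7.51, 7.45, 7.60 and 7.39 with vehicle and 6.12, 6.11, 6.10 and 6.39 with Dox on day 2. HMGB1 fell by 0.56 log2 units on day 1 and by 1.31 on day 2 (adjusted p = 7.2e-09). Its groups did not overlap on either day, as for 21.3% of all probes on day 1 and 28% on day 2. DPP4, the peptidase that inactivates CXCL12 and a gene named here after its values were seen, fell by 0.60 and 0.72. SDC1, named in the same way, rose by 0.32 and 0.44 by its brightest probe.

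A list for CXCR4 and ACKR3 signaling had 41 measured genes of 45, not all of which act downstream of these receptors. Of the 41, 9 were higher and 5 lower on day 1, and 11 higher and 10 lower on day 2. Over all genes, 10.7% were higher and 11.5% lower on day 1, and 16.6% and 16.7% on day 2. Of the 41, 25 were above background on all arrays of a group and 15 on no array. With only probes above background on at least 4 arrays tested, 45.5% of probes passed on day 1 and 62.7% on day 2, in either direction. The median log2 difference of the list was -0.02 on day 1 and -0.01 on day 2, close to that of all genes. The genes that rose by at least 2-fold were the focal adhesion kinase family member PTK2B, the adhesion docking proteins BCAR1 and PXN, and the GTPase RAC2, a regulator of the actin cytoskeleton. RAC2 gave 6.08, 6.39, 6.63 and 6.27 with vehicle and 7.90, 7.83, 7.75 and 7.75 with Dox on day 1, a 2.76-fold rise (adjusted p = 5e-09), and rose 2.32-fold on day 2. PTK2B rose 2.40-fold on day 1 and 2.53-fold on day 2 (adjusted p = 3.4e-08 and 3.9e-09) by its brightest probe, while its 2 other probes were above background on at most 3 arrays and did not pass. BCAR1 rose 2.05-fold and 2.07-fold. PXN was at background on every vehicle array, and its rise came to 1.29-fold or more after 24 h and 2.17-fold or more after 48 h. The size of these rises depended on the background treatment. Without background correction the day 1 log2 differences were 0.90 for PTK2B, 0.55 for BCAR1, 0.24 for PXN and 0.88 for RAC2. All 4 still passed the threshold, but none reached 2-fold.

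The genes of this list that fell by at least 2-fold were RGS2 and GRK6. RGS2, which speeds the shutdown of G protein signals, gave 7.41, 7.42, 7.32 and 7.38 with vehicle and 5.64, 5.91, 5.48 and 5.97 with Dox on day 1. RGS2 was 3.10-fold lower on day 1 and 2.64-fold lower on day 2 (adjusted p = 2.3e-09 and 3.7e-09). Without background correction its day 1 log2 difference was -0.84, still past the threshold but short of 2-fold. GRK6, a kinase that phosphorylates CXCR4 for arrestin binding, was 1.75-fold lower on day 1 and 2.73-fold lower on day 2 (adjusted p = 3.3e-09), when it was above background on 1 of 4 Dox arrays, and its second probe also fell on both days. ARRB1, which encodes a beta-arrestin that ACKR3 recruits and was named after its values were seen, fell by 0.39 and 0.97. This list had 11 genes higher and 10 lower on day 2. Among the higher, and named in the same way, GNAI2 rose by 0.41 and 0.81, PTK2 by 0.74 and 0.70, and STAT3 by 0.59 on each day. By the interaction term, the falls of HMGB1 and GRK6 were larger on day 2 than on day 1 (by -0.74 and -0.64 log2 units, adjusted p = 0.0014 and 0.0067).

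**Figure D4:**
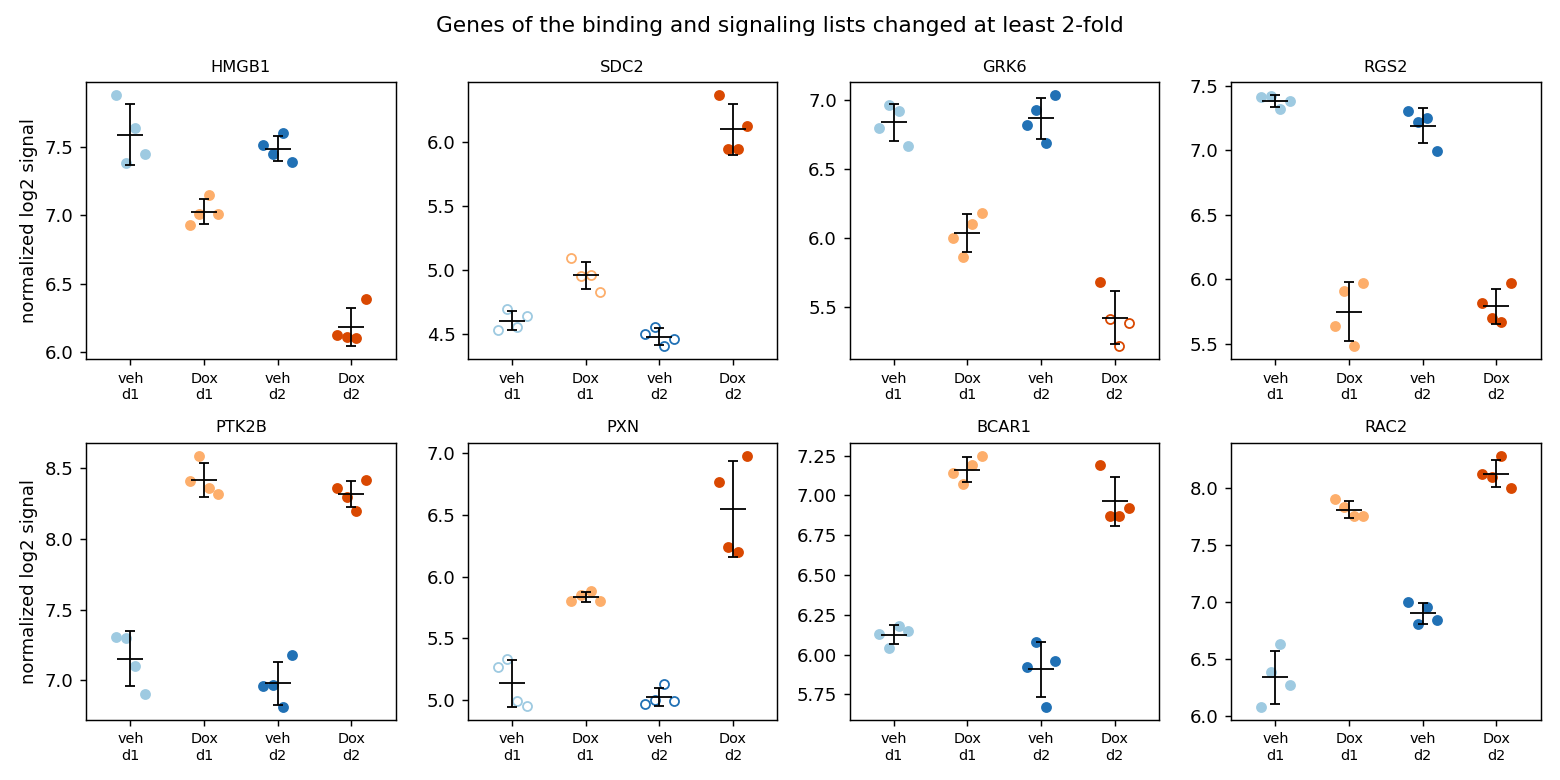
Normalized log2 signal (vertical axis, a separate range in each panel) of 8 genes of the binding and signaling lists on the 16 arrays (veh, vehicle, d1 and d2, day 1 and day 2). Their fitted change was at least 2-fold on at least 1 day, though the bound for SDC2 was 1.59-fold. Points are arrays, filled where above background, and black marks are group means with 1 SD (n = 4). RGS2 in the Dox groups lies below all its vehicle points, and SDC2 is filled on the 4 Dox arrays of day 2 alone.

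NF-kB is a known activator of CXCL1, CXCL2 and several other chemokine genes. Of 29 listed NF-kB targets, 25 were matched to a probe by symbol. Of these, 1 was higher and 0 lower on day 1, and 1 higher and 6 lower on day 2, with none of the 25 past 2-fold. CSF2, also on the list, was not matched to a probe here, and the authors report it among the genes raised by Runx2. Over all genes, 10.7% were higher and 11.5% lower on day 1, and 16.6% and 16.7% on day 2. Of the 6 lower genes, TNFAIP2 and LTB, named after their values were seen, were above background on 0 arrays. The 1 higher gene was IRF1 on both days, at 0.38 and 0.85 log2 units, and it was named after its values were seen. Of the 25, 15 were above background on no array, CXCL1 and CXCL2 among them. The median log2 difference of the list was -0.01 on day 1 and 0.02 on day 2.

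Since CXCL12 is typical of stromal cells, stromal, endothelial and hematopoietic markers were read on the same arrays. In bulk RNA, a change in the number of cells of a type and a change in RNA per cell cannot be told apart. Of 12 stromal markers, 7 were above background on no array, namely COL1A2, COL3A1, COL6A3, DCN, LUM, FAP and THY1. The log2 of the summed stromal signal was 8.44 to 8.63 with vehicle and 8.52 to 8.68 with Dox on day 1, and 8.75 to 8.83 and 8.85 to 8.90 on day 2, when the groups did not overlap. On day 1, 1 stromal gene was higher and 0 lower, and on day 2, 2 were higher and 2 lower. Over all genes, 10.7% were higher and 11.5% lower on day 1, and 16.6% and 16.7% on day 2. The brightest stromal marker, VIM, was above background on 16 of 16 arrays and rose by 0.28 on day 1 and 0.57 on day 2. PDGFRB was above background on 13. Also on day 2, and named after their values were seen, ACTA2 was higher with Dox, above background on 4 Dox arrays and 0 vehicle arrays, and COL1A1 was lower, above background on 0 Dox arrays and 3 vehicle arrays. Of 8 endothelial markers, 6 were above background on no array, VWF fell by 0.95 on day 2, and TIE1 was above background on 1 array. Of 11 hematopoietic markers, 9 were above background on no array, and the summed signal varied from 8.56 to 11.43 with the hemoglobin gene HBB, while CD68 was above background on 16 arrays and rose by 0.73 on day 2 (adjusted p = 0.018). The part of the VIM, ACTA2 and CD68 changes in the CXCL12 and ACKR3 results was not tested.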

How the data were processed

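The authors hybridized total RNA from 16 cultures to Illumina human Ref-8 version 3 BeadChips and deposited the raw probe signals, an intensity scale that was not normalized, with a detection p-value for each probe and array. The authors also deposited a log2 table, background-corrected by a model of the negative control probes and normalized between arrays. Each of its columns had a median of 4.67 and ranked the probes as that array's own signals did (Spearman's rho at least 0.9999), and it served as an alternative. Here signals were background-corrected with limma 3.58.1 (nec, R 4.3.3, control statistics inferred from the detection p-values, offset 16), quantile normalized and log2 transformed. The offset shrinks changes of dim probes. A fit with 4 group means over all 16 arrays (lmFit and eBayes) gave the contrasts, with Benjamini-Hochberg adjustment over 24526 probes. It was tested on simulated data. The number of arrays limits the precision.

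Symbols came from the platform annotation, updated through gene identifiers by RefSeq: 21834 probes had 1 symbol, 0 had several and 2692 had none. A gene was read by its brightest probe. List genes counted as measured where a probe carried their symbol, so an unmatched gene may still be on the array. A probe below background on all 4 arrays of a group gave a bound, the mean of the bright group over the higher of the dim probe's own signal and the lowest signal above background on each array, and none where both groups were dim. Named genes were every probe of the 7 genes, list genes with a fitted change past 2-fold, the 5 genes most like CXCL12 and ACKR3, RUNX2, and the 2 brightest genes of each marker list. Members and lists were chosen with earlier results of these data known. Replicate numbers were not used to pair samples in the fit reported. Alternatives were no background correction, an offset of 50, median scaling, the authors' table, a filter on dim probes, the compared arrays alone, a replicate block and leaving out each array. Nothing in the sources used here names the chip that held each array.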

Additional observations from a re-analysis of the deposited data

Results flagged for a closer look

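The interaction term of the fit, the day 2 difference minus the day 1 difference, passed for 7 of 18 probes tested, the 10 described and 8 list genes. It passed for 10.9% of all probes, but the 8 list genes were chosen for a fitted change of at least 2-fold with Dox, so the shares are not comparable. The day 2 difference exceeded the day 1 difference by 0.30 log2 units for ACKR3 (adjusted p = 0.026), and it was lower by -0.49 for CXCL16 (adjusted p = 0.021), -0.74 for HMGB1 (adjusted p = 0.0014) and -0.64 for GRK6 (adjusted p = 0.0067). For 3 probes the fitted values rest on levels at background in both vehicle groups (for SDC2 in Dox day 1 too), so their sizes were not measured: 0.86 for CXCL12 at ILMN_1689111 (adjusted p = 0.0028), 1.27 for SDC2 (adjusted p = 1.1e-06) and 0.83 for PXN (adjusted p = 0.0098).

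In 2 of 72 groups of 4 arrays, 1 array stood apart from the other 3 by more than Dixon's limit, which chance exceeds in about 1 group in 20. HMGB1 was 6.39 in Dox replicate 4 of day 2, against 6.10 to 6.12 in the others, and BCAR1 was 7.19 in Dox replicate 1 of day 2, against 6.87 to 6.92. None of the probes of CXCL12, ACKR3, CXCR4, CXCL16, CXCR6, CXCL1 or CXCL2 had such an array.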

How the results depend on the processing

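The counts of the 10 probes past the threshold were recomputed 114 times over the alternatives, and 1 moved by over 1.5 times: the interaction term passed for 3 probes in the fit reported and for 0 on the values that the authors normalized. Smaller changes were 4 probes in place of 3 on day 1 without Dox replicate 2 of that day, 2 or 4 in place of 3 for the interaction, and 5 in place of 4 between the Dox days with median scaling. Of 1000 recomputed differences of single probes, 980 kept their direction and side of the threshold, 8 no longer passed, 3 newly passed and 9 turned sign. Every call for CXCL12, ACKR3 and CXCL16 on day 1 and day 2 was kept in all 23 alternatives, with adjusted p up to 0.012 for CXCL16 on day 2. The 8 list genes also kept their calls on both days, but not their 2-fold size. On day 2 their smallest rises over the alternatives were 0.925 for PTK2B, 0.817 for RAC2, 0.604 for PXN, 0.594 for SDC2 and 0.52 for BCAR1. The smallest falls were -0.733 for HMGB1, -0.704 for RGS2 and -0.646 for GRK6. The differences that turned sign did not pass in either fit: CXCL16 between the vehicle days was -0.003 with median scaling (0.14 in the fit reported), the PTK2B interaction was -0.054 with median scaling, and the BCAR1 interaction was -0.028 without background correction, -0.016 with an offset of 50, -0.135 with median scaling and -0.06 to 0.076 leaving out single arrays. The replicate block changed no call of these probes (4523 probes passed on day 1 against 4622, and 7031 on day 2 against 7095). Same-numbered arrays deviated together at r = -0.033 to 0.171 on day 1 and -0.007 to 0.106 on day 2, those numbered 1 also between the days (r = 0.379 with vehicle and 0.415 with Dox), and 2 of 8 Dox arrays correlated best with their own number. Of 460 recomputed list counts 22 moved by over 1.5 times, all of them counts that were 3 or fewer. Signals below background limit what the arrays can show for CXCR4, CXCR6, CXCL1 and CXCL2.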
